A study of Mus musculus with 18 samples.

Results

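The chemokines and chemokine receptors were followed as 57 genes among the 22180 genes that had a transcript cluster of their own on the array. A gene was taken by its symbol: the Ccl and Cxcl ligands, Cx3cl1, Xcl1, Pf4 and Ppbp, the Ccr and Cxcr receptors, Cx3cr1, Xcr1 and the atypical receptors named Ackr. These were 36 ligands and 21 receptors: 19 CC ligands, 15 CXC ligands, 2 other ligands, 9 CC receptors, 6 CXC receptors, 2 other receptors and 4 atypical receptors. Only clusters annotated to a single gene were used, so Ccl19, the Ccl21 genes and Ccl27b, which share clusters with near-identical copies, are not among the 57. Ccl27a had 2 clusters of its own, and the one with the higher mean over all arrays was taken. Cxcl11 is listed as a transcribed pseudogene in the C57BL/6J gene table used for names, and its status in the strain measured here is not given.

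Chemokines are small secreted proteins that guide leukocytes along gradients by binding receptors coupled to inhibitory G proteins. The arrangement of the cysteines near the amino end divides them into the CC, CXC, CX3C and C classes, and receptors are named after the class they bind. Some ligands, such as Cxcl12, are made all the time and hold cells in their place, while others, such as Cxcl10 and Ccl2, are induced by interferon or by NF-kappaB during inflammation. In the ovary, leukocytes enter around ovulation and during regression of the corpus luteum, and in the brain the neuronal ligand Cx3cl1 binds the microglial receptor Cx3cr1.

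The 18 arrays, Affymetrix Mouse Gene 2.0 ST, held RNA of ovary, pituitary and hypothalamus from female mice of the strain labelled BABL/c, 6 arrays per tissue. Mice of the stress group were transported, and those of the control group were their littermates, in 10 pairs. For the transport the labels name a distance of 1000 km, a duration of nearly 10 h and a mean speed of 50 km/h, and the distance is larger than the other two values give. All mice entered the study at 6 weeks of age and were superovulated at 9 weeks, so every sample, control included, comes from a hormone-treated female. Each group gave 3 samples per tissue: that of 1 mouse with the highest oocyte yield (high), that of 1 mouse with the lowest yield (low) and a mixture of the 8 remaining mice (pool). The high and low samples are therefore single animals, the 3 samples of a group differ in ovulation class, and p values measure a spread that holds those class differences. The number of arrays, not a count of reads, limits the precision.

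Markers placed the tissues as labelled: all 8 ovary markers were higher in ovary than in either other tissue, and all 7 measured pituitary markers were higher in pituitary. All 7 measured hypothalamus markers were higher in hypothalamus than in ovary, and 6 of the 7 than in pituitary. Several pools carried transcripts of another tissue. The mean signal of the 8 ovary markers was 7.12 in the stressed pituitary pool and 6.39 in the stressed hypothalamus pool, against 4.81 to 5.27 in the single-mouse arrays of those tissues. The pituitary marker mean was 7.22 in the stressed ovary pool and 6.81 in the control ovary pool, against 4.42 to 4.74 in single-mouse ovaries. None of the 6 erythrocyte markers had a cluster of its own (0 measured).

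All levels below are log2 signals, so a difference of 1 is a 2-fold change. As a guide to background, each array's 95th percentile over 1105 odorant receptor genes was taken, and it lay between 4.45 and 5.05. Of the 57 genes, 17 stood above this guide on all 18 arrays, among them Cxcl12, Cxcl14, Cxcl16, Cx3cl1, Cx3cr1, Cxcr4 and Ccl5. Another 14 stood above it on no array (0), among them Ccl1, Ccl26, Ccr3, Ccr8, Ccr9, Cxcl2, Cxcl3, Cxcl5 and Xcr1. In ovary 32 genes were above the guide on all 6 arrays, in pituitary 22 and in hypothalamus 19. Values near or under the guide may hold little of the gene's own signal.

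The genes lie mostly in groups of neighbours, with 14 of the 57 on chromosome 11, 13 on chromosome 5 and 12 on chromosome 9. Promoter sequence is shown for Cxcl10, the member with the largest stress minus control difference within an ovulation class, which attracts T cells through Cxcr3 and is induced by interferon. The sequence covers the 250 bases before the start of the RefSeq transcript in GRCm38.p6, at chr5:92348890-92349139 on the minus strand, written 5′ to 3′.
Cxcl10: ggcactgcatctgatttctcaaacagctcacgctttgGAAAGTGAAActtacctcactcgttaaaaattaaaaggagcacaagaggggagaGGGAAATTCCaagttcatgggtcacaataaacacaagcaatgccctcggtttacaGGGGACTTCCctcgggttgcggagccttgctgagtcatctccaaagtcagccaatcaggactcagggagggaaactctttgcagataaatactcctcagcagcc
The capitals mark, in order, 1 match to the core of an interferon-stimulated response element (GAAANNGAAA) and 2 matches to an NF-kappaB site (GGGNNNTTCC), the letters searched on both strands. Counted from the start, the first bases of these matches lie at -213, -159 and -104.

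Promoters of 43 of the 57 genes were in the RefSeq table, each from 250 bases before to 50 bases after a start. The interferon element core occurred in 2 of the 43 (4.65%), Cxcl10 and Cxcl14, against 3.99% of the 27025 genes in the table. The NF-kappaB site occurred in 9 of the 43 (20.9%), against 6.31% of all genes. The 9 were Ccl1, Ccl9, Ccl20, Ccr3, Ccr6, Cxcl1, Cxcl2, Cxcl3 and Cxcl10. A match is a stretch of letters and not a measured binding site. The neutrophil attractants Cxcl1, Cxcl2 and Cxcl3, neighbours on chromosome 5, share a site of the same letters, which is why their windows are given as 40 bases of the plus strand of GRCm38.p6 with this site in capitals. The windows lie at chr5:90891159-90891198 for Cxcl1, chr5:90903787-90903826 for Cxcl2 and chr5:90786013-90786052 for Cxcl3, and the sites begin at -71, -97 and -73 from the start.
Cxcl1: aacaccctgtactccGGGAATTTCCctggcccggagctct
Cxcl2: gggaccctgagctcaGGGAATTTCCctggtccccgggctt
Cxcl3: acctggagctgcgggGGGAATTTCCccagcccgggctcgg
The same 10 letters stand in all 3 windows, and in each a match on the other strand overlaps them, shifted by 1 base. The array signals of Cxcl2 and Cxcl3 stood above the background guide on no array, and that of Cxcl1 on 4 of 6 ovary, 3 of 6 pituitary and 3 of 6 hypothalamus arrays.

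The tissues were compared first. Ovary and hypothalamus differed in 30 of the 57 genes, 25 higher in ovary and 5 lower. This is 43.9% higher and 8.77% lower, against a background of 25.7% of all genes higher and 21.5% lower in ovary, 47.2% in all (limma with the mouse or pool as a block, adjusted p under 0.05 over all genes). Ovary and pituitary differed in 20 genes, 16 higher in ovary (28.1%, against 21.8% of all genes) and 4 lower (7.02%, against 19.2%). In total 35.1% of the members passed that comparison, and 41% of all genes did. Pituitary and hypothalamus also differed in 20 genes, with 16 higher in pituitary (28.1%, background 19.9%) and 4 lower (7.02%, background 19.6%). Here 39.5% of all genes passed in either direction. The median difference over the 57 genes was 0.25 for ovary minus hypothalamus, 0.07 for ovary minus pituitary and 0.22 for pituitary minus hypothalamus, against 0.03, -0.01 and 0.04 over all genes. The split of the ovary and pituitary calls was 19 higher and 2 lower with arrays centred on their medians (25% and 16.6% of all genes), and that of pituitary and hypothalamus was 16 higher and 8 lower after quantile normalization (21.4% and 18.6%). With control arrays only, ovary and pituitary differed in 12 genes, 9 higher and 3 lower, where 29.1% of all genes passed. Without the pools, 23 members passed for ovary against hypothalamus (41.7% of all genes), 17 for ovary against pituitary (37.3%) and 16 for pituitary against hypothalamus (36.3%).

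**Figure D1:**
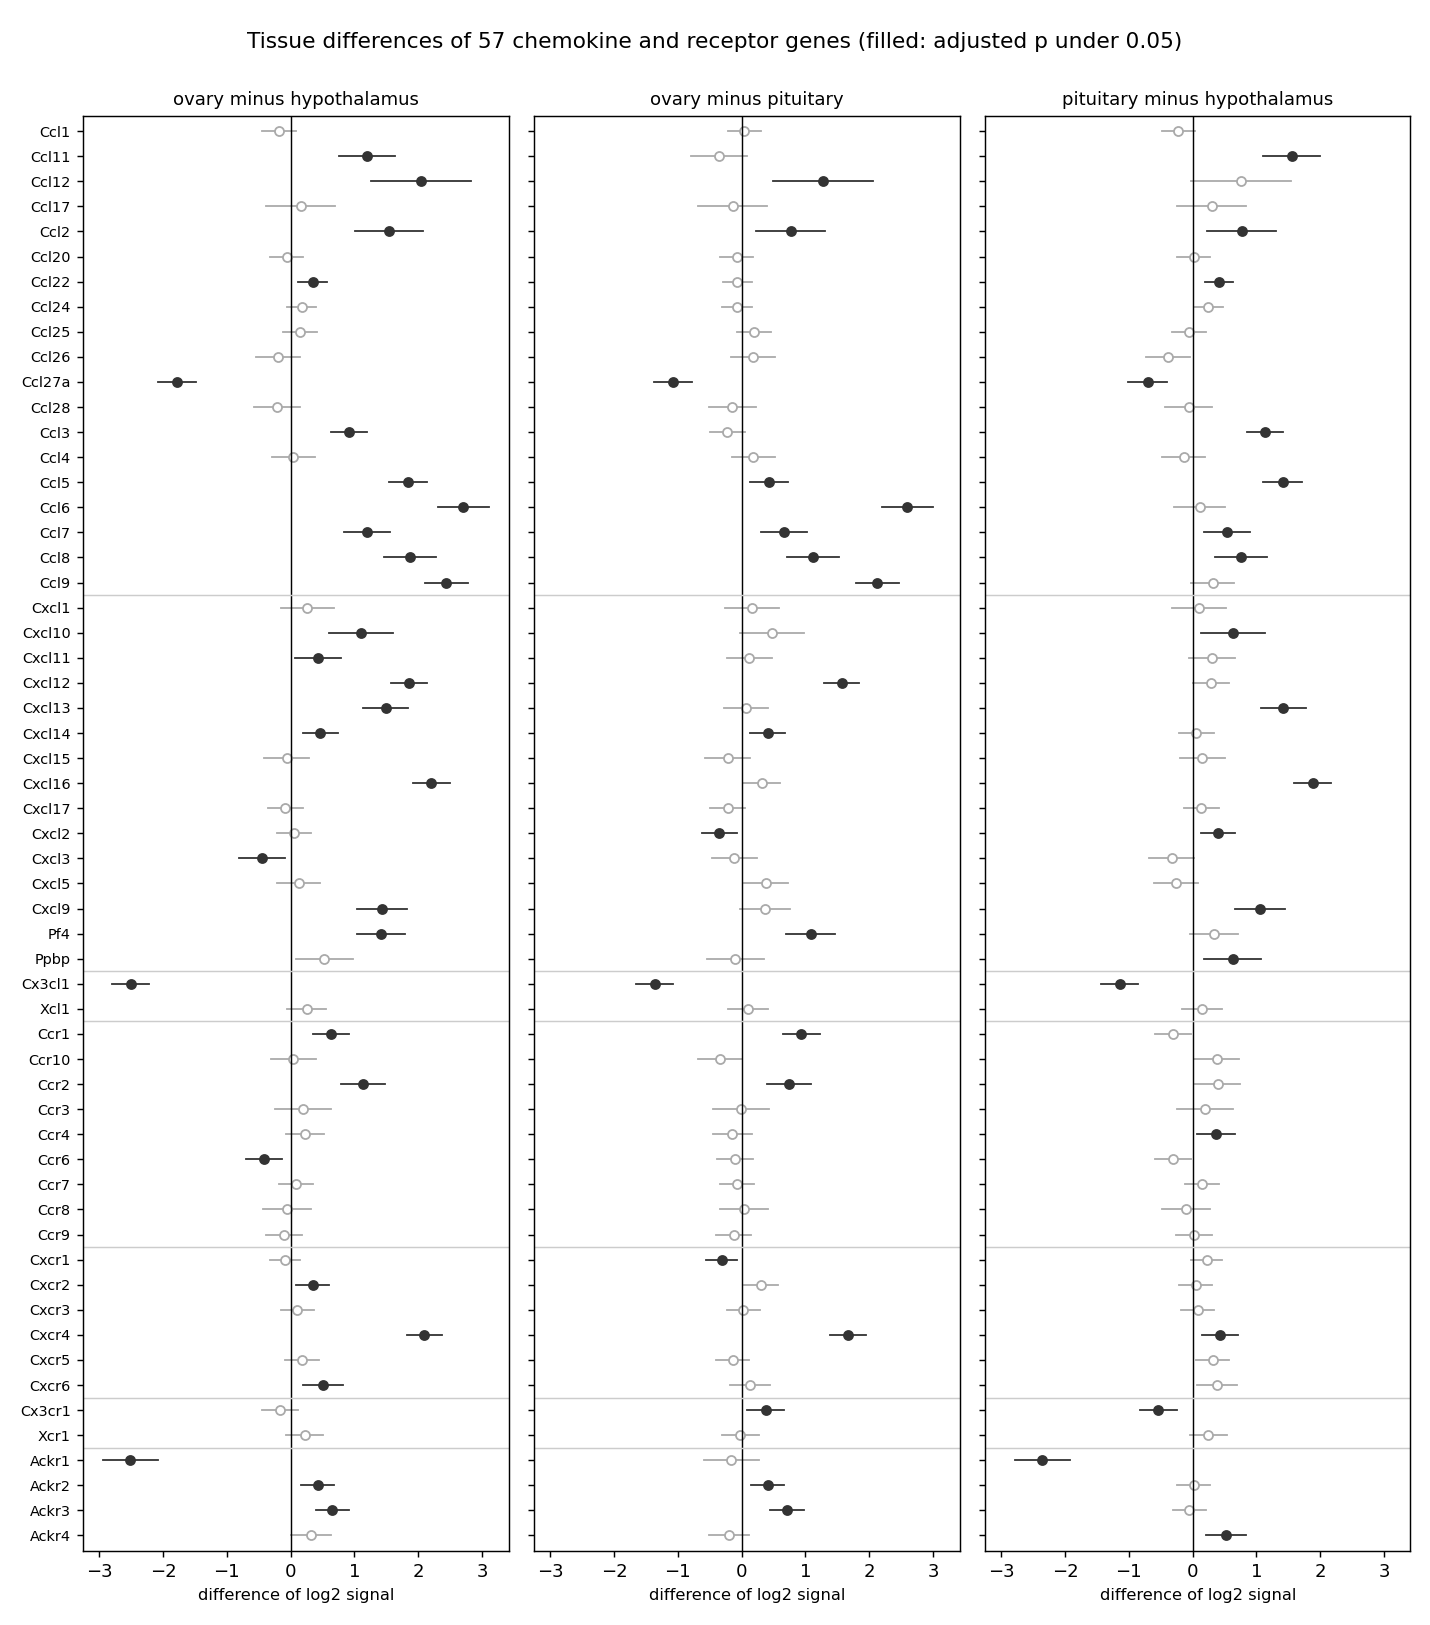
Differences of log2 signal between tissues for the 57 genes, in rows by family (CC ligands, CXC ligands, other ligands, CC receptors, CXC receptors, other receptors, atypical receptors), with points for the limma estimate, bars for its 95% confidence interval and filled points for adjusted p under 0.05. Ccl6 and Ccl9 lie furthest to the right in both ovary comparisons, and Cx3cl1 and Ackr1 furthest to the left in ovary minus hypothalamus.

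Of the 57 genes, 15 (26.3%) were higher in ovary than in both other tissues, as were 15.9% of all genes. They were the ligands Ccl2, Ccl5, Ccl6, Ccl7, Ccl8, Ccl9, Ccl12, Cxcl12, Cxcl14 and Pf4, the receptors Ccr1, Ccr2 and Cxcr4, and the atypical receptors Ackr2 and Ackr3. For Ccl6, Ccl8, Ccl9, Cxcl12 and Cxcr4 all 6 ovary arrays stood above all 12 arrays of the other tissues (8.77%, against 8.64% of all genes). Hypothalamus had the highest level of 3 genes (5.26%, against 13.8% of all genes), Ackr1, Ccl27a and Cx3cl1. For Ackr1 and Cx3cl1 all its arrays stood above the 12 others (3.51%, against 8.76% of all genes). Pituitary had the highest level of Cxcl2 alone (1.75%, against 7.68% of all genes), a gene not above the background guide on any array, and its difference from ovary was lost under 10 alternatives. Another group of 12 genes (21.1%, against 11.6% of all genes) was lower in hypothalamus than in both other tissues, 5 of them (Ccl2, Ccl5, Ccl7, Ccl8 and Cxcr4) also highest in ovary, and 21 passed none of the 3 comparisons (36.8%, against 38.5% of all genes).

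Among the CC ligands, Ccl6 and Ccl9 showed the largest ovarian excess. Ccl6, a macrophage-derived ligand of Ccr1 in mice, had signals of 6.46 to 7.74 with a median of 6.81 in ovary, 3.92 to 4.71 (median 4.50) in pituitary and 3.90 to 4.70 (median 4.38) in hypothalamus. The ovary range lay clear of the other tissues, whose signals were around the background guide, on 1 of 6 arrays above it in each. The difference was 2.60 from pituitary (adjusted p = 1.9e-09) and 2.71 from hypothalamus (95% interval 2.31 to 3.11, adjusted p = 5.02e-10; limma). Both ovary pools, at 7.74 in stress and 7.69 in control, stood above the 4 single-mouse ovaries at 6.46 to 6.89.

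Ccl9, another Ccr1 ligand, had signals of 7.68 to 8.84 (median 8.07) in ovary, 5.58 to 6.41 (median 6.07) in pituitary and 5.21 to 6.31 (median 5.67) in hypothalamus. The difference from pituitary was 2.13 (95% interval 1.79 to 2.47, adjusted p = 2.7e-09) and from hypothalamus 2.44 (2.10 to 2.78, adjusted p = 1.83e-10; limma). Ccr1 itself, the receptor of both, averaged 4.51 ± 0.21 in ovary, 3.58 ± 0.30 in pituitary and 3.89 ± 0.22 in hypothalamus (SD, n = 6 each). Its ovary signals exceeded the background guide on 2 of 6 arrays and those of the other tissues on 0. The differences of Ccr1 were 0.94 from pituitary (adjusted p = 1.16e-05) and 0.63 from hypothalamus (adjusted p = 0.000631; limma), and the second was lost with control arrays only.

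The monocyte attractants of the chromosome 11 group followed the same order of tissues. In the gene table the run reads Ccl2, Ccl7, Ccl11, Ccl12, Ccl8, Ccl1, and 4 of these 6 were highest in ovary. Ccl8 averaged 5.66 ± 0.45 in ovary, 4.55 ± 0.31 in pituitary and 3.79 ± 0.47 in hypothalamus (SD, n = 6 each). It was higher in ovary by 1.11 than in pituitary and by 1.87 than in hypothalamus (adjusted p = 9.65e-05 and 1.04e-07; limma), and all ovary arrays lay above the others. Ccl2, the main ligand of Ccr2, averaged 6.05 ± 0.53 in ovary, 5.28 ± 0.42 in pituitary and 4.51 ± 0.50 in hypothalamus (SD, n = 6 each). Its difference from pituitary, 0.77 (adjusted p = 0.0218; limma), was lost under 4 alternatives, without the control low mouse, the control pool, the stressed pool or all pools. Ccl12, a Ccr2 ligand found in mice, spread from 4.54 to 7.96 in ovary, with both pools lowest, and from 3.90 to 6.26 in pituitary. Ccl7, which binds Ccr2 as well, was higher in ovary than in pituitary by 0.67 (adjusted p = 0.00375; limma), a call lost without the pools and with control arrays only. The pituitary difference of Ccl12, 1.28 (adjusted p = 0.00969; limma), was lost without the control low mouse and without the block.

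Ccl11 (eotaxin-1), which attracts eosinophils through Ccr3, stood apart from its neighbours: it averaged 5.82 ± 0.29 in ovary and 6.18 ± 0.60 in pituitary, a difference of -0.36 that did not pass (adjusted p = 0.197; limma), and 4.62 ± 0.26 in hypothalamus (SD, n = 6 each). Ccl1 passed no comparison. The next run of neighbours reads Ccl5, Ccl9, Ccl6, Ccl3, Ccl4. Ccl5, which recruits T cells and monocytes, averaged 6.82 ± 0.16 in ovary, 6.39 ± 0.39 in pituitary and 4.98 ± 0.26 in hypothalamus (SD, n = 6 each). Ovary exceeded hypothalamus by 1.84 (adjusted p = 1.69e-09), and the smaller difference from pituitary, 0.43 (adjusted p = 0.0194; limma), was lost without either high mouse or with control arrays only. Ccl3, a ligand of Ccr1, averaged 5.78 in ovary and 6.01 in pituitary, not separable by the test (-0.22, adjusted p = 0.205), against 4.87 in hypothalamus, which was lower than both. Ccl4, its close relative and neighbour, averaged 5.11, 4.93 and 5.07 in ovary, pituitary and hypothalamus and passed no comparison.

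Ccl27a, a ligand of Ccr10 that is also made as a non-secreted variant, ran the other way. Its signals were 4.95 to 5.63 in ovary, 5.85 to 6.86 in pituitary and 6.77 to 7.21 in hypothalamus. Ovary was lower than pituitary by a difference of -1.07 (adjusted p = 4.91e-06) and than hypothalamus by -1.78 (adjusted p = 3.27e-09; limma). Ccr10, its receptor, averaged 4.71 in ovary, 5.05 in pituitary and 4.67 in hypothalamus and passed no comparison. Ccl28, the other ligand of Ccr10, Ccl25 and its receptor Ccr9, Ccl17, Ccl20, Ccl24 and Ccl26 did not differ between tissues at the threshold, and Ccl22, a Ccr4 ligand, was higher by 0.35 in ovary and by 0.42 in pituitary than in hypothalamus (adjusted p = 0.0109 and 0.00393; limma). Both calls were lost without the pools, and the ovary one also without the control low mouse, without the stressed pool and with control arrays only. Ccl22 stood above the background guide on 2 of 6 pituitary arrays, and on 0 of the other tissues.

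Among the CXC ligands, Cxcl12 and its receptor Cxcr4 had the same order of tissues. Cxcl12, which retains leukocytes and progenitor cells in tissues, had signals of 8.95 to 9.44 (median 9.05) in ovary, 7.15 to 7.72 (median 7.60) in pituitary and 6.73 to 7.47 (median 7.39) in hypothalamus. Cxcr4 had signals of 8.21 to 8.83 (median 8.61) in ovary, 6.46 to 7.21 (median 6.98) in pituitary and 6.26 to 6.88 (median 6.41) in hypothalamus. In both genes the ovary arrays formed a separate group, while pituitary and hypothalamus overlapped. The ovary difference from pituitary was 1.57 for Cxcl12 (adjusted p = 1.27e-08) and 1.67 for Cxcr4 (adjusted p = 5.89e-09), and from hypothalamus 1.86 (adjusted p = 5.82e-10) and 2.10 (adjusted p = 1.12e-10; limma). Ackr3, the scavenging receptor of Cxcl12, averaged 6.39 ± 0.25 in ovary, 5.68 ± 0.23 in pituitary and 5.73 ± 0.09 in hypothalamus (SD, n = 6 each), with ovary higher by 0.71 and 0.66 (adjusted p = 0.000104 and 0.000175; limma). The difference of Ackr3 from pituitary was lost with control arrays only.

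Cxcl16, a transmembrane ligand that binds Cxcr6, separated hypothalamus from the other tissues. It had signals of 8.07 to 8.38 in ovary and 7.58 to 8.28 in pituitary, against 5.60 to 6.51 in hypothalamus. Ovary exceeded hypothalamus by 2.20 (95% interval 1.91 to 2.49, adjusted p = 8.92e-11) and pituitary did so by 1.88 (1.59 to 2.17, adjusted p = 2.28e-09; limma). The ovary and pituitary difference of 0.32 did not pass (adjusted p = 0.0751), and it passed under 4 alternatives. Cxcr6, the receptor, lay under the background guide on all 18 arrays. Cxcl13, which draws B cells through Cxcr5, averaged 6.08 ± 0.43 in ovary, 6.01 ± 0.39 in pituitary and 4.59 ± 0.36 in hypothalamus (SD, n = 6 each), and Cxcr5 passed no comparison.

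Of the interferon-inducible ligands of Cxcr3, neighbours on chromosome 5, Cxcl9 and Cxcl10 were also lowest in hypothalamus. Cxcl9 averaged 5.58 ± 0.41 in ovary, 5.21 ± 0.44 in pituitary and 4.15 ± 0.25 in hypothalamus, where 0 of 6 arrays were above the guide (SD, n = 6 each). It differed by 1.43 for ovary and 1.06 for pituitary against hypothalamus (adjusted p = 2.19e-06 and 0.000117; limma). Cxcl10 averaged 5.86 ± 0.83 in ovary, 5.39 ± 0.35 in pituitary and 4.75 ± 0.16 in hypothalamus (SD, n = 6 each), with ovary higher by 1.10 (adjusted p = 0.000651; limma) and pituitary by 0.63 (adjusted p = 0.0414; limma), the second lost under 6 alternatives. Cxcl11 averaged 4.98 ± 0.58 in ovary, 4.86 ± 0.18 in pituitary and 4.55 ± 0.33 in hypothalamus (SD, n = 6 each), and its only call, ovary above hypothalamus by 0.43 (adjusted p = 0.0454; limma), was lost under 7 alternatives. Cxcr3, the receptor on activated T cells, averaged 5.43, 5.41 and 5.33 in ovary, pituitary and hypothalamus and passed no comparison. Of the chromosome 5 run of Cxcl5, Ppbp, Pf4, Cxcl3, Cxcl15, Cxcl1 and Cxcl2, only Pf4 (platelet factor 4) was highest in ovary, at 5.12 to 6.18 against 3.98 to 5.16 in pituitary and 3.76 to 4.79 in hypothalamus. Its ovary difference was 1.08 from pituitary and 1.42 from hypothalamus (adjusted p = 6.82e-05 and 1.89e-06; limma). Of 6 measured platelet markers 1 was higher in ovary than in pituitary and 0 were lower, with a median difference of -0.05. Of all genes 21.8% were higher and 19.2% lower. Cxcl14, a ligand without a settled receptor, averaged 9.82 ± 0.10 in ovary, 9.41 ± 0.35 in pituitary and 9.35 ± 0.19 in hypothalamus (SD, n = 6 each). Its ovary differences of 0.41 and 0.46 passed (adjusted p = 0.0178 and 0.00634; limma), the first lost under 6 alternatives and the second with control arrays only.

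Cx3cl1, fractalkine, separated all 3 tissues. Its signals were 6.61 to 7.29 (median 7.09) in ovary, 8.04 to 8.84 (median 8.19) in pituitary and 9.21 to 9.83 (median 9.42) in hypothalamus, with no overlap between any of the tissues. Ovary was lower than hypothalamus by a difference of -2.51 (95% interval -2.80 to -2.22, adjusted p = 1.4e-11), ovary than pituitary by -1.36 (adjusted p = 1.38e-07) and pituitary than hypothalamus by -1.14 (adjusted p = 1.52e-06; limma). Its receptor Cx3cr1, carried by microglia and by monocytes, did not follow that order: it averaged 6.94 ± 0.20 in ovary, 6.56 ± 0.27 in pituitary and 7.10 ± 0.22 in hypothalamus (SD, n = 6 each). Ovary and hypothalamus were not separated (-0.16, 95% interval -0.45 to 0.12, adjusted p = 0.368; limma), and pituitary was lower than hypothalamus by -0.54 (adjusted p = 0.00358; limma). Ovary exceeded pituitary by 0.37 (adjusted p = 0.0344; limma), a call lost under 7 alternatives. Xcl1 (lymphotactin) and its receptor Xcr1 passed no comparison.

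Among the receptors, Ccr2, found on inflammatory monocytes, averaged 4.86 ± 0.32 in ovary, 4.11 ± 0.39 in pituitary and 3.72 ± 0.11 in hypothalamus (SD, n = 6 each). It was above the background guide on 5 of 6 ovary arrays and on 0 of the other tissues, and the ovary differences were 0.75 and 1.14 (adjusted p = 0.00107 and 8.74e-06; limma). The difference from pituitary was lost without the pools and with control arrays only. Ccr7, which leads dendritic cells and naive T cells to lymph nodes, averaged 5.43, 5.50 and 5.35 in ovary, pituitary and hypothalamus and passed no comparison. Ccr6, the receptor of Ccl20, was lower in ovary than in hypothalamus by -0.41 (adjusted p = 0.0159; limma), with 2 of 18 arrays above the background guide. Cxcr1, a neutrophil receptor, was lower in ovary than in pituitary by -0.31 (adjusted p = 0.0355; limma). Neither gene was followed singly in the alternatives. Ccr4 and the scavenger Ackr4 were higher in pituitary than in hypothalamus by 0.37 and 0.52, without an array above the background guide, and these calls were lost under 7 and 3 alternatives. Ccr3, Ccr8, Cxcl5, Cxcl15 and Cxcl17 passed no comparison. The neutrophil receptor Cxcr2 was higher in ovary than in hypothalamus by 0.35 (adjusted p = 0.0269; limma), a call lost under 7 alternatives. Ackr1, a receptor of venular endothelium and red cells that binds many chemokines without signalling, had signals of 4.20 to 4.77 in ovary, 4.35 to 5.05 in pituitary and 6.27 to 7.83 in hypothalamus. It was lower in ovary than in hypothalamus by -2.51 (adjusted p = 3.97e-09; limma) and in pituitary by -2.35 (adjusted p = 2.31e-08; limma). Both hypothalamus pools, at 7.78 in stress and 7.83 in control, stood above the 4 single-mouse hypothalami at 6.27 to 6.74. Ackr2, which degrades inflammatory CC chemokines, was higher in ovary by 0.41 than in pituitary and by 0.42 than in hypothalamus (adjusted p = 0.0109 and 0.00693; limma), and both calls were lost without the pools.

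**Figure D2:**
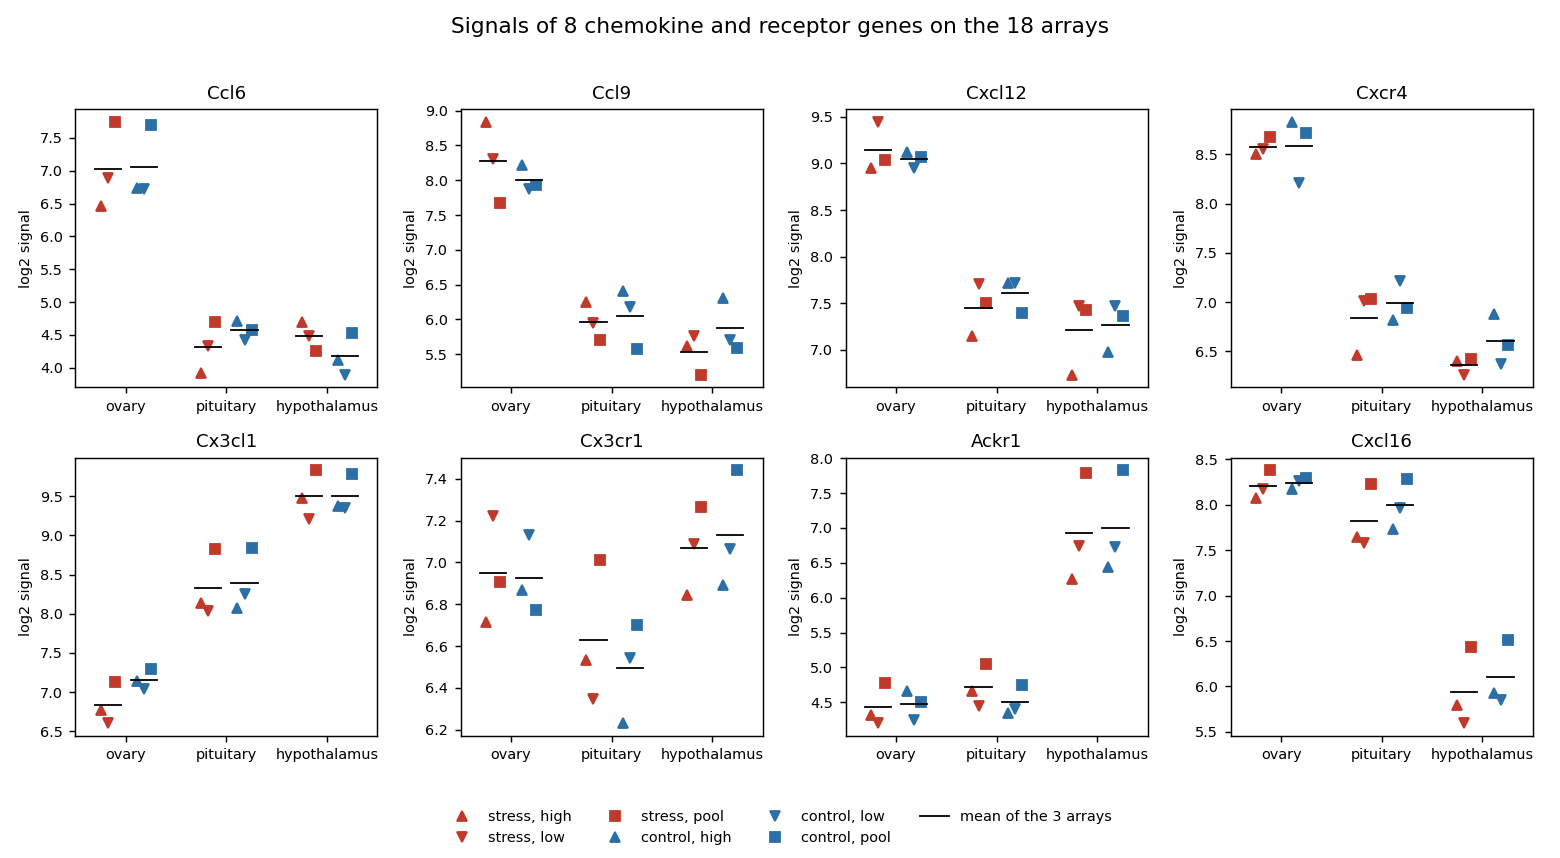
Log2 signal (vertical axis) of 8 genes on each of the 18 arrays by tissue, with stress arrays in red to the left of control arrays in blue, symbols for the ovulation class and a line at the mean of the 3 arrays of a group. Ccl6, Ccl9, Cxcl12 and Cxcr4 are highest in ovary, Ackr1 and Cx3cl1 are highest in hypothalamus, and Cxcl16 is lowest there.

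Cell markers differed between the tissues as well, and in whole tissue fewer cells of a type and less RNA per cell cannot be told apart. Of all genes, 21.8% were higher and 19.2% lower in ovary than in pituitary, and 25.7% and 21.5% than in hypothalamus. All 14 macrophage markers were higher in ovary than in pituitary, and 10 of 14 were higher and 1 lower in ovary than in hypothalamus. Their mean signal was 7.17 to 7.69 over the ovary arrays, 6.32 to 6.58 in pituitary and 6.25 to 6.49 in hypothalamus. All 8 endothelial markers were higher in ovary than in pituitary and 6 of 8 than in hypothalamus, with a mean of 7.94 to 8.33 in ovary, 6.67 to 7.15 in pituitary and 6.38 to 6.99 in hypothalamus. Of 7 measured microglia markers 4 were lower and 1 higher in ovary than in hypothalamus. Of 10 T and NK cell markers, 7 were higher in ovary than in hypothalamus and 4 than in pituitary, with 0 lower. Neutrophil markers gave 2 of 10 and B cell markers 2 of 7 higher in ovary than in hypothalamus, close to the share of all genes. Of 7 astrocyte markers, 5 were lower and 1 higher in ovary than in hypothalamus. The part of these cell types in the chemokine differences was not tested.

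The surrounding pathway was read from 4 lists, and the genes named from them are examples that do not stand for a whole list. Of all genes, 21.8% were higher and 19.2% lower in ovary than in pituitary. Against hypothalamus 25.7% of all genes were higher and 21.5% lower. Of 14 leukocyte adhesion partners, 10 were higher in ovary than in pituitary and 0 lower, for example the integrin ligand Icam1 by 1.18 and P-selectin, Selp, by 1.30. Against hypothalamus 9 were higher, such as Icam1 by 1.51, and 2 lower, Vcam1 by -0.60 and Selplg by -1.12. Of 22 transducers of chemokine receptor signals, 15 were higher and 2 lower in ovary than in pituitary, and 11 were higher and 6 lower than in hypothalamus. Among the kinases that desensitize such receptors, Grk5 was higher by 2.40 and 1.74 and Grk3 lower, at -0.89 and -2.05. Of 17 inducers of chemokines, 7 were higher in ovary than in pituitary and 11 than in hypothalamus, with 0 and 1 lower. The interleukin 1 receptor Il1r1 was higher by 1.45 and 3.51, and the TNF receptor Tnfrsf1a by 1.26 and 2.98. Of 17 interferon-induced genes 3 were higher in ovary than in pituitary and 14 than in hypothalamus, with 0 lower in each, for example Bst2, an antiviral tether, by 2.83 and 3.98.

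The second comparison was that of transported with control mice. No chemokine or receptor passed in any tissue (0 of 57 each, background 0% of 22180 genes, limma), and the lowest adjusted p of a member was 0.9985 in ovary, 0.9999 in pituitary and 1 in hypothalamus after rounding. At an unadjusted p under 0.05 there were 2 members in ovary, 0 in pituitary and 1 in hypothalamus, against 2.67%, 1.33% and 1.1% of all genes. Stress was higher for 27 and lower for 30 of the 57 in ovary, 29 and 28 in pituitary, and 27 and 30 in hypothalamus. The median stress minus control over the 57 was -0.02 in ovary, 0.002 in pituitary and -0.03 in hypothalamus, against -0.02, -0.04 and -0.02 over all genes. The median standard error of a member's difference was 0.21, 0.26 and 0.22. These errors hold the spread between ovulation classes, as the fit had no term for class. With class as a block, the adjusted p was 0.499 for Pf4 in ovary and 0.856 for Ppbp in pituitary (limma), and no member passed.

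Arrays of the groups did not overlap for 3 members in ovary (8.77% of all genes), for 1 in pituitary (6.08%) and for 7 in hypothalamus (4.54%). In ovary these were Ccr1 with stress above control (4.71% of genes) and Pf4 and Ccl20 with stress below (4.07%). Pf4 had 5.27, 5.12 and 5.75 in the high, low and pool samples of stressed ovaries, against 5.99, 5.88 and 6.18 in those of control ovaries. Every stressed ovary was below every control ovary, by a mean difference of -0.63 (95% interval -1.12 to -0.15, unadjusted p = 0.0157, adjusted p = 0.9985; limma). Ccl20, which attracts Ccr6-bearing cells, had 4.42, 4.30 and 4.19 in stressed ovaries against 4.79, 4.98 and 4.54 in control ovaries, a difference of -0.47 (adjusted p = 0.9985; limma). These signals were close to the background guide, which 3 of the 6 ovary arrays exceeded for Ccl20.

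In pituitary the gene without overlap was Ppbp, a platelet-derived neutrophil attractant of the same chromosome 5 run as Pf4, with stress below control (1 member, 3.68% of genes) and 0 members with stress above (2.4%). It had 5.51, 4.81 and 5.46 in the high, low and pool samples of stressed pituitaries, against 6.06, 5.96 and 5.54 in control pituitaries, a difference of -0.59 (95% interval -1.21 to 0.03, adjusted p = 0.9999; limma). The pools were 0.08 apart, and the low mice were furthest apart. Pf4 differed by -0.45 in pituitary (adjusted p = 0.9999; limma), from -1.09 between the high mice to a pool in which stress was higher, at 5.12 against 4.78. Platelet markers had a median stress minus control of -0.04 in ovary and 0.21 in pituitary.

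Cxcl13 in hypothalamus had the smallest unadjusted p among all members and tissues. Its signals were 5.02, 4.86 and 4.85 in the high, low and pool samples of stressed hypothalami, against 4.14, 4.27 and 4.40 in control hypothalami. The stressed arrays, 3 of 3, were all above the control arrays, by 0.64 (95% interval 0.23 to 1.05, unadjusted p = 0.00672, adjusted p = 1; limma). Only the 3 stressed arrays exceeded the background guide. B cell markers, the cells that Cxcl13 attracts, had a median stress minus control of 0.12 in hypothalamus, with 5 of 7 positive. Their mean level there was 4.44 to 4.87, around the background guide. Platelet markers had 5 of 6 positive (median 0.11) and neutrophil markers 6 of 10 (0.12), and 44.54% of all genes were positive. Ovary markers, whose tissue had more Cxcl13 signal than hypothalamus, were higher in stressed hypothalami for 8 of 8 genes, with a median of 0.40 and a mean level of 5.14 to 6.39 against 4.81 to 5.22 in control hypothalami. Within pairs, stress was higher for 8 of 8 ovary markers in the high mice (median 0.28) and 6 of 8 in the low mice (0.12). Pituitary also had more Cxcl13 signal than hypothalamus, and its markers were lower in stressed hypothalami for 6 of 7 genes (median -0.15). The Cxcl13 difference was 0.73 without the pools, and the part of B cells, ovarian tissue or pituitary tissue in it was not tested. Ccr8, found on some T cells, and Cxcr2 also had all stressed arrays above all control arrays (3 members with Cxcl13, 1.94% of genes), and Cxcl5, Ccl5, Cxcl9 and Ackr3 had them all below (4 members, 2.6% of genes). Of these, Ccr8 and Cxcl5 stood above the background guide on no array, and Cxcl9 on no hypothalamus array. Ccl5 had 4.83, 4.90 and 4.64 in stressed hypothalami, against 5.08, 5.03 and 5.40 in control hypothalami, a difference of -0.38 (adjusted p = 1; limma).

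Cxcl12, Cxcr4 and Cx3cl1, members with clear tissue differences, were read in the tissue where they were highest. Ccl6, Ccl9 and Ackr1 had larger differences from the nearer tissue and were not read in this way. Cxcl12 had 8.96, 9.44 and 9.04 in stressed ovaries, against 9.13, 8.95 and 9.07 in control ovaries, and Cxcr4 had 8.50, 8.56 and 8.67, against 8.83, 8.21 and 8.72. Cx3cl1 had 9.47, 9.21 and 9.83 in stressed hypothalami, against 9.37, 9.35 and 9.79 in control hypothalami. In each of these genes the groups overlapped, and the pools of both groups lay together in Cx3cl1 above the single mice.

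Within ovulation classes, a pair of single arrays could be set side by side, with no replicate and no test. Between the high mice, stressed ovary exceeded control ovary by more than 2-fold for 4 members, Cxcl10, Ccl12, Ccl7 and Cxcl11, where 1.12% of all genes did so, and 0 members were lower by that much (1.17% of genes). Cxcl10 had 7.51 in the stressed high ovary, against 5.45 in the control high ovary, a difference of 2.07. In the low mice it had 5.29 against 5.49, and in the pools 5.55 against 5.86, so that stress was above control in the high pair alone for Cxcl10. Ccl12 had 7.96 against 6.47 in the high pair (1.49), 6.00 against 6.36 in the low pair and 4.96 against 4.54 in the pools. Cxcl11 had 5.99 against 4.90 in the high pair (1.08), 4.84 against 4.17 in the low pair and 5.05 against 4.91 in the pools, stress first in each. Ccl7 had 6.77 in the stressed high ovary, against 5.57 in the control one (1.20), in the low pair 5.81 against 5.96, and in the pools 6.98 against 6.39, so that the stressed pool was the highest ovary array for Ccl7. Cxcl9 differed by 0.90 in the high pair, at 6.06 in the stressed ovary against 5.16 in the control ovary, and Cxcr3 by -0.03.

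The stressed high mouse differed from the other mice in interferon-induced genes as well. In ovary the mean signal of the 17 genes was 8.51 in the stressed high mouse, and 6.57 to 6.71 on the other 5 arrays. In pituitary it was 7.74 in that mouse and 5.96 to 6.29 elsewhere, and in hypothalamus 5.51 and 4.85 to 5.19. All 17 genes were higher in the stressed than in the control high mouse in ovary and in pituitary, and 14 of 17 in hypothalamus, with medians of 1.77, 1.53 and 0.63. Iigp1, an interferon-induced GTPase, had 9.75 in the stressed high ovary against 5.92 in the control high ovary, and Gbp3, a guanylate-binding protein, 8.29 against 5.53. In the low pair the list median was 0.03 in ovary, -0.20 in pituitary and 0.03 in hypothalamus, and in the pools -0.04, -0.11 and -0.26. Over all 3 classes none of the 17 passed (0), and the median was 0.54, 0.36 and 0.11. As all 3 tissues of the high class come from 1 stressed and 1 control mouse, treatment and animal cannot be told apart there.

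In the other tissues of that mouse the chemokines differed among themselves. Cxcl10 in pituitary had 6.00 in the stressed high mouse against 5.17 in the control high mouse, and in hypothalamus 4.83 against 4.95. Ccl12 had 6.26 in the stressed high pituitary against 5.61 in the control one, and 4.70 against 3.88 in hypothalamus. The stressed high mouse gave the highest array for Ccl12 in all 3 tissues, but in hypothalamus 0 of 6 arrays were above the background guide for it. For Cxcl9 the pituitary of the high pair had 4.90 against 5.05, and the highest pituitary array was the stressed low mouse at 6.09.

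**Figure D3:**
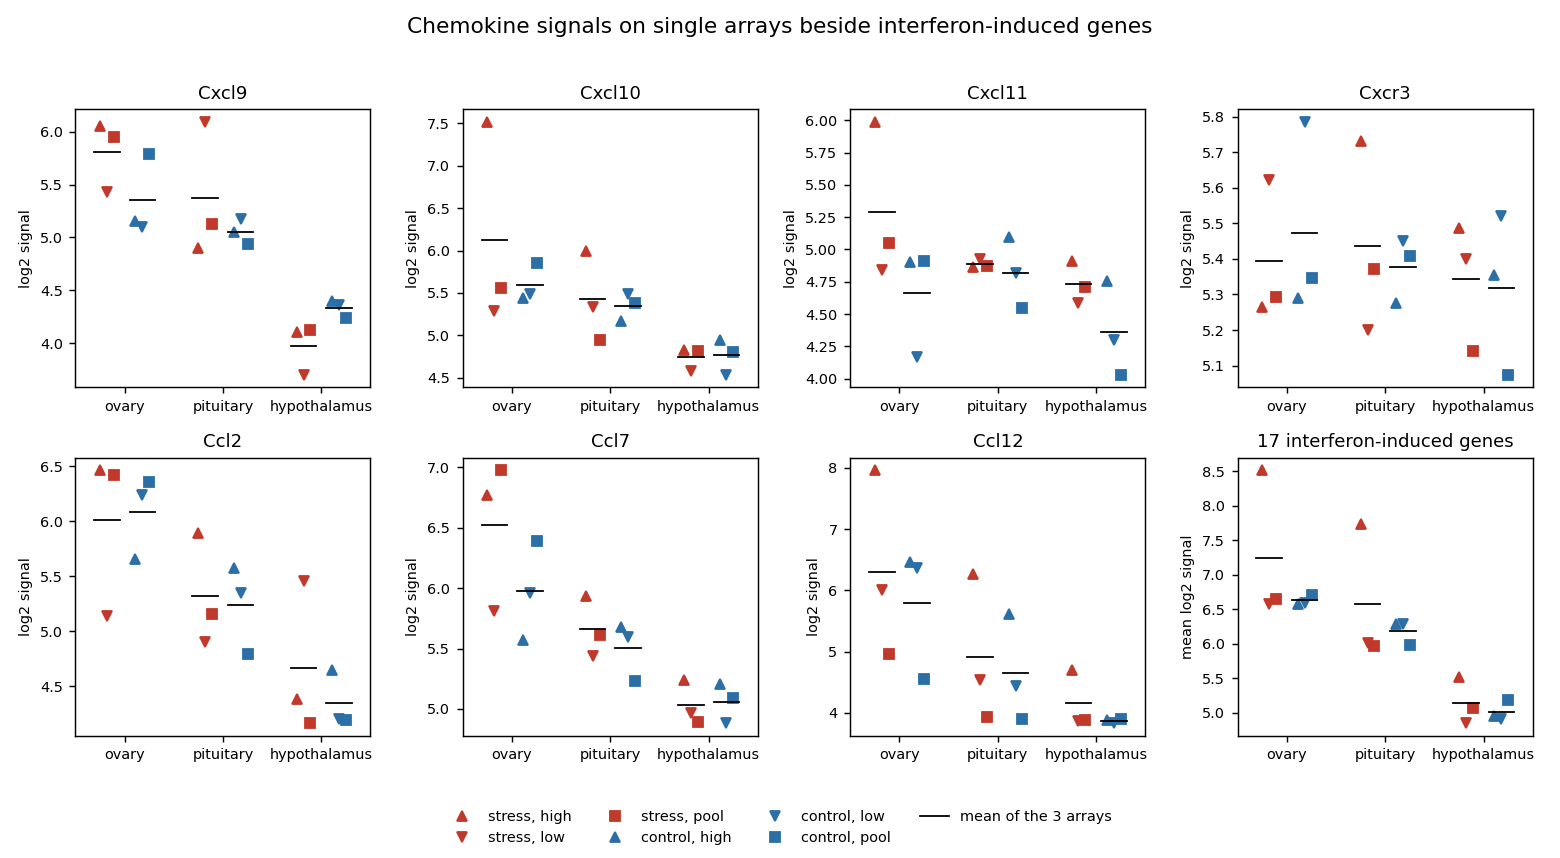
Log2 signal on each array of 7 genes, and in the last panel the mean of 17 interferon-induced genes, by tissue, with stress in red to the left of control in blue, symbols for the ovulation class and lines at the mean of 3 arrays. The stressed high mouse is the top point for Cxcl10 and Ccl12 in ovary and pituitary and for the interferon-induced genes in all 3 tissues.

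Other single pairs went beyond 2-fold for few members. In the ovary low pair Ccl2 had 5.14 in the stressed mouse against 6.24 in the control mouse, a difference of -1.10 (1.01% of genes lower and 0.753% higher by that much), while in the high pair it had 6.46 against 5.66. In pituitary, Pf4 had 4.07 in the stressed high mouse against 5.16 in the control high mouse (3.45% of genes lower and 2.1% higher by 2-fold). Ppbp had 4.81 in the stressed low mouse against 5.96 in the control low mouse (0.622% of genes lower and 0.834% higher). In hypothalamus, Ccr8 had 4.69 in the stressed high mouse against 3.06 in the control high mouse, a difference of 1.62 (1% of genes, and 0.906% lower by that much), with no array above the background guide. Ccl2 had 5.46 in the stressed low hypothalamus against 4.20 in the control low one, a difference of 1.25 (0.442% of genes higher and 0.604% lower). In the pools of all 3 tissues 0 members went beyond 2-fold, where 0.198%, 1.51% and 0.32% of genes in ovary, pituitary and hypothalamus were higher and 0.0992%, 0.573% and 0.216% lower by that much.

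**Figure D4:**
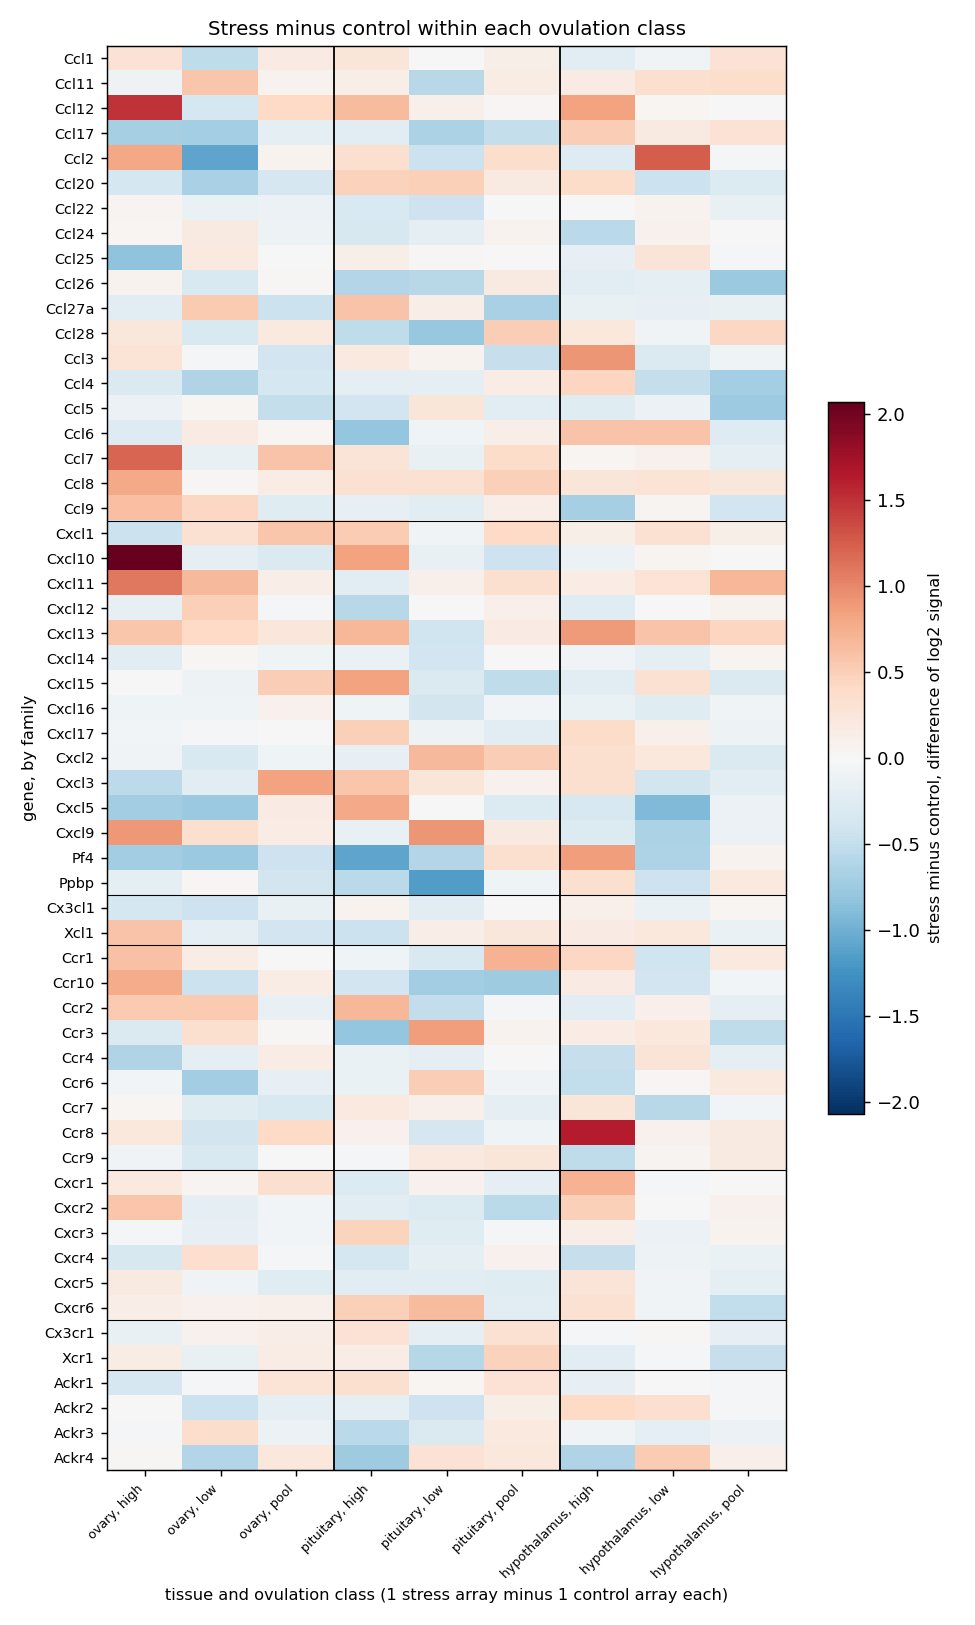
Stress minus control (colour, difference of log2 signal) for the 57 genes in rows by family and for each tissue and ovulation class in columns, each column setting 1 stress array against 1 control array. The strongest colours stand in the ovary high column, at Cxcl10 (2.07) and Ccl12 (1.49), and in the hypothalamus high column at Ccr8 (1.62).

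Within the 3 classes the sign was positive throughout for 7 members in ovary, 6 in pituitary and 8 in hypothalamus, and negative throughout for 9, 7 and 9. Over all genes the shares were 17%, 10.1% and 9.23% positive and 19.3%, 17.7% and 14.3% negative, against 12.3%, 10.5% and 14.0% and 15.8%, 12.3% and 15.8% of the members. The other pathway lists held 0 passing genes under stress in each tissue (limma). At an unadjusted p under 0.05 there were Gnai3 (0.52), Il1b (0.53) and Il6 (0.80) in ovary and Itga4 (0.60) in pituitary. The median stress minus control of the macrophage list was -0.03 in ovary, -0.10 in pituitary and 0.01 in hypothalamus.

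The stress difference was also compared between tissues. None of the 57 genes passed for ovary minus hypothalamus, ovary minus pituitary or pituitary minus hypothalamus (0 each, background 0% of genes, limma with the mouse or pool as a block). At an unadjusted p under 0.05 there were 1, 2 and 1 members, against 2.24%, 3.63% and 3.49% of all genes.

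High ovulation was compared with low in each tissue over both treatments, with class and treatment in the model. No member passed (0 in each tissue, background 0% of genes), and the lowest adjusted p of a member was 0.408 in ovary, 0.9 in pituitary and 0.135 in hypothalamus (limma). At an unadjusted p under 0.05 there were 8 members in ovary (10.7% of all genes), 4 in pituitary (5.23%) and 7 in hypothalamus (19.3%). With 1 mouse per class and treatment, the count of 0 does not show that the classes were alike. In pituitary it carries no information, as that fit made no calls on simulated data with known changes either. Ccl12 had 7.96 and 6.47 in the high ovaries, against 6.00 and 6.36 in the low ovaries, stressed mouse first, and the difference was 1.03 (95% interval 0.09 to 1.98; limma). In pituitary it had 6.26 and 5.61 in the high mice, against 4.53 and 4.43 in the low mice, a difference of 1.45 (0.89 to 2.02, adjusted p = 0.9; limma). Both high pituitaries were above both low ones, and the pools were lowest. Cxcl11 in ovary had 5.99 and 4.90 in the high mice, against 4.84 and 4.17 in the low mice, a difference of 0.94 (adjusted p = 0.408; limma).

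In hypothalamus Ccl8 had 4.50 and 4.25 in the high mice, against 3.63 and 3.34 in the low mice, a difference of 0.89 (95% interval 0.52 to 1.26, adjusted p = 0.135; limma), all under the background guide. Cxcl12 there had 6.73 and 6.98 in the high mice, against 7.47 and 7.47 in the low mice, a difference of -0.61 (-1.02 to -0.21, adjusted p = 0.158; limma). High and low did not overlap for either gene, but both were named as leading members by p in this comparison. The share of all genes without overlap was not counted. The same holds for Ccl12 in pituitary. Each class holds 1 mouse per treatment, so ovulation class and individual cannot be told apart.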

How the data were processed

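Each array gave 1 deposited log2 signal per transcript cluster. The authors' tool was Transcriptome Analysis Console, per the submitters' processing notes. Its version, normalization, background correction and genome build are not given in the sources used here, and the log2 base was read from the values. Of 41345 clusters, the 23521 naming 1 gene were kept, with the cluster of highest mean per gene, which gave 22180 genes. Names were checked against the RefSeq gene table of GRCm38.p6, as were neighbours and promoter sequences. No filter on low values was used.

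Tissues were compared in limma 3.58.1 (R 4.3.3) on 18 arrays with the mouse or pool as a random block (consensus correlation 0.27). Without the pools the consensus correlation was 0.0232, so the value of 0.27 does not describe the single mice alone. Stress minus control was fitted on the 6 arrays of a tissue without a block, and high minus low with class and treatment as terms. Tests are two-sided, with Benjamini-Hochberg adjustment over all genes at 0.05. Intervals are 95% confidence intervals. Stress and control share class names: same-class deviations from the group means correlated at 0.359 to 0.727 in all 9 pairs, so a fit with class as a replicate block was run as well. Each fit was also run on simulated data with known changes. There the fit of high against low in pituitary made no calls, so the absence of calls in that comparison carries no information. The simulation was a single draw. What the other fits recovered in it is not given here, so their counts of 0 are not shown to mean an absence of differences.

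The 57 members, 12 marker lists, 4 pathway lists and alternatives were chosen with earlier results of these data known. Members named were a chosen set, of which 41 were measured, and the leading genes of each comparison by p or by size (up to 6 per tissue, up to 5 per direction under stress, 4 per class, up to 4 per direction between classes). Further members were named to account for their family after their values were seen. Ccl19 and Ccl21a of the set had no cluster of their own and were not analysed with the 57. Python 3.11.15 and matplotlib 3.10.9 drew the figures.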

Additional observations from a re-analysis of the deposited data

Results flagged for a closer look

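For 4 members the stress minus control difference had opposite signs in all 3 ovulation classes of a pair of tissues, which 8.5% of all genes did as well, against 7.02% of the members. Ccl17, a Ccr4 ligand, differed by -0.52 in ovary and by -0.45 in pituitary, and by 0.33 in hypothalamus. Ccl20 differed by -0.47 in ovary and by 0.38 in pituitary. Cxcl9 differed by 0.46 in ovary and by -0.35 in hypothalamus, where it was under the background guide on all 6 arrays. Cxcr2 differed by -0.35 in pituitary and by 0.20 in hypothalamus. The interaction fits of limma did not separate the tissues for any of these pairs (adjusted p = 1 after rounding in each). The smallest unadjusted p among them was 0.003, for Ccl20 in ovary against pituitary.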

How the results depend on the processing

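Under stress, 0 genes and 0 members passed in each tissue under every alternative run: quantile normalization, median centring, a filter on low values, the mean of a gene's clusters, each array left out in turn, no pools, array weights and an intensity trend. With ovulation class as a replicate block the counts were 0 too, and the block changed no call. High against low gave 0 in every alternative, a count that is no sign of stability in so few arrays. Leaving out each mouse or pool in turn gave 26 to 29 members for ovary against hypothalamus (9631 to 9856 genes), 15 to 19 for ovary against pituitary (7854 to 8593) and 17 to 20 for pituitary against hypothalamus (7587 to 8339). Control arrays only gave 12 members for ovary against pituitary. Without the pools, 1 gene passed for the stress difference of ovary against hypothalamus and 1 for pituitary against hypothalamus, neither a member. Among 45 members followed singly, calls were read in every alternative that held the gene. They held throughout for 20 of 27, 9 of 19 and 10 of 19 in the 3 tissue comparisons, with Ccl8, Ccl27a and Cx3cl1 in each. The filter on low values dropped members of low mean signal, among them Ccr1 and Ccr2, so it did not test their calls. No called value changed sign (0). Members that passed in neither fit were not counted as changing direction. The number of arrays and signals near the background guide limit what could be seen.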

Other observations

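The Ccl21 genes, whose product guides Ccr7-bearing cells along lymphatic vessels, share 9 clusters, of which 5 hold distinct values, and were outside the 57. The mean of these clusters was 10.36 in ovary, 5.31 in pituitary and 5.19 in hypothalamus. In ovary it was 10.27 in stressed and 10.46 in control samples. The stressed pituitary pool had 6.21 and the control pituitary pool 5.02, against 4.88 to 5.36 in single-mouse pituitaries, and the hypothalamus pools had 5.86 in stress and 5.50 in control, against 4.84 to 5.09 in single-mouse hypothalami. Ovary markers (8) averaged 7.12 in the pituitary pool of stressed mice, against 5.09 in that of control mice, and 6.39 against 5.09 in the hypothalamus pools. The part of ovarian tissue in these values was not tested.

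Ccl19, the other Ccr7 ligand, shares 13 clusters with near-identical copies (9 with distinct values), with a mean of 5.53 in ovary, 5.94 in pituitary and 5.45 in hypothalamus. The second cluster of Ccl27a averaged 4.41 in ovary, 4.61 in pituitary and 5.01 in hypothalamus, the same order of tissues as the cluster that was used.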
